A study of Mus musculus with 4 samples.

Results

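The integrated stress response was examined in septal tissue of the mouse brain through 9 genes: Atf4 and 8 genes that ATF4 is known to switch on or act beside (Atf5, Ddit3, Asns, Trib3, Sesn2, Psat1, Phgdh and Slc7a11). The genes were chosen by name, each matched 1 of the 15409 gene rows, and all 9 passed the filter on low values described below. Tissue came from mice without a T cell receptor beta chain (TCRb-/-) and from wild-type (WT) mice. Every mouse of both genotypes was restrained for 30 min on 3 days and killed 1.5 h after the last session, so there was no unstressed group and the effect of restraint itself cannot be read from these data. Each genotype had 1 library in experiment 1 and 1 in experiment 2, and each library was a pool of septal tissue from 4 to 5 mice. TCRb-/- mice have no T cells of the alpha-beta type but still make gamma-delta T cells. The sources used here do not give the strain, age or sex of the mice or the making of the null allele. Where a pair of values is given per genotype, experiment 1 comes first.

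In the integrated stress response, kinases that sense unfolded protein, amino acid shortage, viral RNA or lack of heme phosphorylate the translation factor eIF2alpha. General protein synthesis then slows, while the ATF4 mRNA is translated more, because short upstream reading frames in its leader otherwise hold it back. ATF4 pairs with other bZIP factors and induces genes for amino acid synthesis and uptake, for the death-linked factor CHOP (Ddit3) and for feedback regulators. Only mRNA was measured here. The phosphorylation of eIF2alpha and the amount of ATF4 protein were not.

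The 4 libraries held between 19988137 and 26210790 reads. Levels are given as CPM, read counts scaled to a common library total. Trbc2, a constant segment of the missing receptor chain, had 169 and 86 reads in WT and 0 in TCRb-/-, where a count of 0 still allows 0.122 and 0.150 CPM (3 reads). All 10 septum markers of the marker list were listed, with a summed level between 621 and 678 CPM. The experiments differed in the tissue around the septum: 10 choroid plexus markers summed to 2125 and 1296 CPM in experiment 1 (TCRb-/- and WT) against 6845 and 4159 CPM in experiment 2, and 6 cortex and hippocampus markers to 207 and 261 CPM against 40.7 and 41.9 CPM. The 8 listed striatum markers summed to 4086 and 3653 CPM in experiment 1 against 850 and 2181 CPM in experiment 2. Astrocyte markers are relevant because astrocytes are a main site of serine synthesis in the brain. They summed to 2918 and 2908 CPM in TCRb-/- and 2696 and 2724 CPM in WT, higher in TCRb-/- in both experiments. Their part in the Phgdh and Psat1 values was not tested.

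Composite sites that ATF4 and C/EBP factors bind together share the core TGATGNAA. It was searched on both strands in the promoters of the 9 genes (RefSeq, GRCm38.p6; 11 windows of 300 bases, from 250 before to 50 after the annotated start), and 3 genes held it: Asns, Slc7a11 and Trib3. Over all 32851 such windows the core was in 3.97%, and its form TGATGCAA, which the core includes and which only Slc7a11 held, in 0.895%. The palindrome TGACGTCA of the CREB and ATF factors was in 1.79% of all windows and in none of the 11. The sites of all 3 genes with the core are shown. Of the 3 genes that varied most between libraries below, Trib3 and Asns held the core and Sesn2 did not. Slc7a11, with 2 matches, varied little. Any link between the core and those differences was not tested. Each line runs 5′ to 3′ on the gene's strand with the core, on either strand, in capitals:
Asns (chr6:7693214-7693243, minus strand, from 34 to 5 bases before the start): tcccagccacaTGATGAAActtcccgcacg
Slc7a11 (chr3:50443651-50443680, minus strand, from 67 to 38 bases before the start): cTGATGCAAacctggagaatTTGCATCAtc
Trib3 (chr2:152344028-152344057, minus strand, from base 4 to base 33 after the start): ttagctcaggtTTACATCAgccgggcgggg
The Asns core began 23 bases before the start. Slc7a11 had a pair facing each other, at 66 and 47 bases before it, and the Trib3 core lay 15 bases after the start. These positions count from the RefSeq starts. The GENCODE gene ranges given below begin elsewhere, at 7693254 for Asns and 152344032 for Trib3 on the minus strand. By those ranges the Asns core lies inside the gene and the Trib3 core before it. A match of letters is not a bound site, and its absence from these windows says nothing of sites elsewhere.

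Per kilobase of annotated exon, Asns was the most abundant of the 9, with a mean of 67.1 CPM per kb over the 4 libraries. Next came Atf4 (41.8), Psat1 (35.5), Phgdh (29.7), Ddit3 (25.8) and Sesn2 (8.32). Trib3 (0.960), Atf5 (0.843) and Slc7a11 (0.477) were near the bottom of the list. The ranges over the 4 libraries did not overlap between neighbours in this order, with 1 exception: Trib3 ran from 0.471 to 1.47 CPM per kb and Atf5 from 0.727 to 0.918, and Trib3 was the higher in 2 of 4 libraries. The length used is all exon bases of every annotated transcript, 13922 for Slc7a11 and between 1713 and 4254 for the others, so the place of Slc7a11 rests on its long alternative exons. All other levels below are in CPM without a length term and are compared only between libraries. In the plot of levels by library, the spread between libraries is small beside the spread between genes, except for Trib3.

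**Figure D1:**
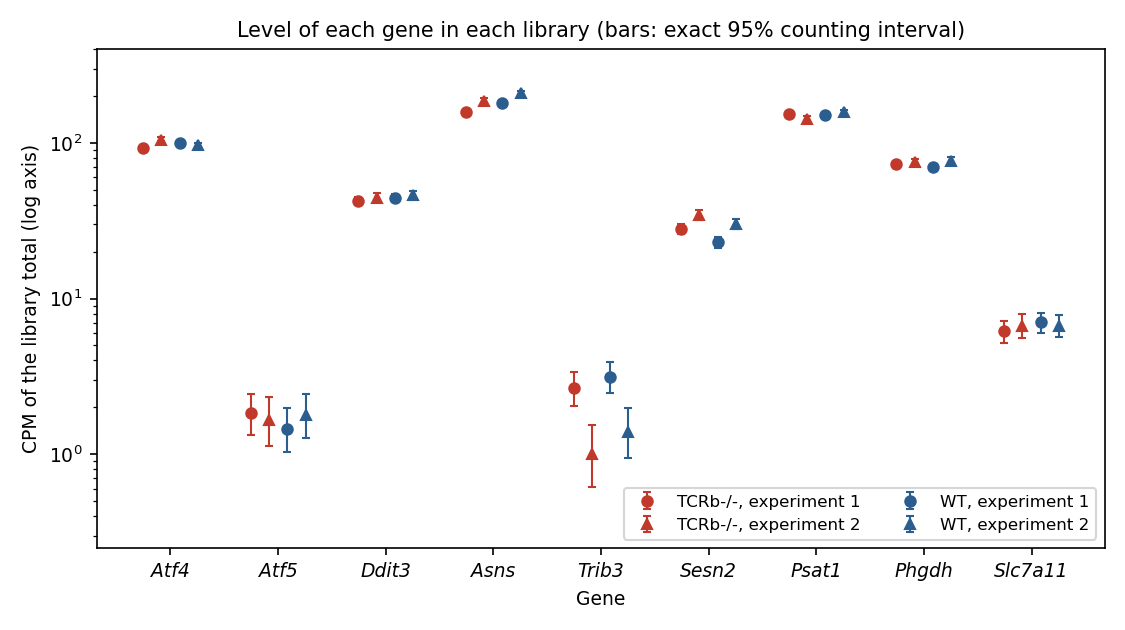
CPM of the library total (log axis) for each of the 9 genes; circles are experiment 1 and triangles experiment 2, red is TCRb-/- and blue WT, and bars are exact 95% counting intervals. Trib3 had 2.64 and 3.13 CPM in experiment 1 against 1.00 and 1.39 CPM in experiment 2, while Ddit3 stayed between 42.2 and 46.1 CPM.

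The first comparison set TCRb-/- against WT after restraint. None of the 9 passed the threshold (limma on log2(CPM + 1), Benjamini-Hochberg adjusted p below 0.05 over 13912 genes), and the background was 0 of 13912 genes (0%). With the experiment as a replicate block, 0 of the 9 passed again, against 2 genes in all (0.0144%). Trbc2, with 0 reads in TCRb-/-, was among these 2 genes (limma adjusted p 0.0323 with the block). Without the block even Trbc2 did not pass (limma adjusted p 0.999975). The lack of calls in that fit therefore does not show that the genotypes were alike. At an unadjusted p under 0.05, limma gave 0 of the 9 against 0.309% of all genes without the block, and 2 of the 9 (Asns and Sesn2) against 5.64% with it. The log2 differences of the 9 genes, TCRb-/- minus WT, ran from -0.22 to 0.22 with a median of -0.050, beside a median of 0.00069 over all genes. Their median size was 0.068, against 0.082 for all genes.

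Among the transcription factors, Atf4 (chromosome 15, 80255184 to 80257541, GRCm38) had 92.7 and 105 CPM in TCRb-/-, against 100.3 and 96.4 CPM in WT. The WT values lay inside the TCRb-/- range. The means were 98.7 ± 8.46 and 98.3 ± 2.74 CPM (SD, n = 2 each), a log2 difference of 0.0028 (SE 0.13; 95% interval -0.32 to 0.33). Blocking on the experiment narrowed that interval to -0.19 to 0.19, or 0.879-fold to 1.14-fold of WT. The block fit takes the same genotype effect in both experiments, while the Atf4 ratios were 0.925 in experiment 1 and 1.09 in experiment 2. Its interval therefore does not show that the genotypes were alike. Ddit3, the gene of CHOP (chromosome 10, 127290774 to 127296288), had 42.2 and 44.4 CPM in TCRb-/- and 44.3 and 46.1 CPM in WT. It was lower in TCRb-/- in both experiments, but by less than the counting error of either: the ratios were 0.951 (exact 95% counting interval 0.874 to 1.04) and 0.963 (0.880 to 1.05). Atf5, an ATF4 relative linked to stress in mitochondria (chromosome 7, 44812256 to 44816658), was nearly absent by comparison, with 45 and 33 reads in TCRb-/- and 38 and 40 in WT. Those reads are 1.83, 1.65, 1.45 and 1.79 CPM, with the highest and the lowest both in experiment 1. At that depth its interval by genotype was wide, from 0.728-fold to 1.51-fold without the block.

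The amino acid genes were measured more finely. Asns makes asparagine (chromosome 6, 7675169 to 7693254). It had 159 and 187 CPM in TCRb-/-, against 179.7 and 209 CPM in WT. The genotypes overlapped across experiments, but within each experiment TCRb-/- was lower, with ratios of 0.883 (exact 95% counting interval 0.846 to 0.921) and 0.897 (0.859 to 0.937). The fitted log2 difference was -0.17 (SE 0.15; limma adjusted p 1.00), and with the replicate block it had SE 0.066 and an adjusted p of 0.848. Both ratios thus lie outside counting error alone, and the difference does not pass the test over all genes in either fit.

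Phgdh and Psat1 encode the first pair of enzymes of serine synthesis. Phgdh (chromosome 3, 98313170 to 98339990) had 72.8 and 75.2 CPM in TCRb-/- and 70.2 and 76.9 CPM in WT, with the WT values on either side of the TCRb-/- ones. Its means were 74.0 ± 1.69 and 73.5 ± 4.78 CPM. Psat1 (chromosome 19, 15904678 to 15947337) had 154 and 143 CPM in TCRb-/- and 150.3 and 157 CPM in WT. The lowest value was TCRb-/- replicate 2, whose ratio to WT in experiment 2 was 0.912 (0.868 to 0.958), against 1.02 (0.978 to 1.07) in experiment 1. Slc7a11 is the cystine-glutamate exchanger that feeds glutathione synthesis (chromosome 3, 49892526 to 50443614). It had 6.14 and 6.70 CPM in TCRb-/- and 7.02 and 6.71 CPM in WT. It was the only one of the 9 whose genotypes did not overlap, lower in TCRb-/- as were 8.04% of all genes, while 0 of the 9 lay wholly higher, as did 9.76%. The gap was between 134 reads in TCRb-/- replicate 2 and 150 in WT replicate 2, a ratio of 0.999 (0.786 to 1.27).

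Sesn2 and Trib3 act as brakes. Sesn2 (chromosome 4, 132492032 to 132510501) restrains mTORC1 when leucine is short, and Trib3 (chromosome 2, 152337422 to 152344032) is a pseudokinase that damps ATF4 and CHOP. Sesn2 had 28.0 and 34.4 CPM in TCRb-/-, against 23.1 and 30.3 CPM in WT. Within each experiment TCRb-/- was the higher, by 1.21-fold (exact 95% counting interval 1.09 to 1.35) and 1.14-fold (1.02 to 1.26), and across experiments the genotypes overlapped. The fitted log2 difference was 0.22 (SE 0.20; limma adjusted p 1.00), or SE 0.095 and adjusted p 0.848 with the replicate block. Trib3 had 65 and 20 reads in TCRb-/- and 82 and 31 in WT, and was lower in TCRb-/- in both experiments at ratios of 0.845 (0.601 to 1.18) and 0.722 (0.390 to 1.31). Both intervals include equality. Its log2 difference was -0.22 (SE 0.41).

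Sesn2 was 1 gene of 9 that was higher in TCRb-/- in both experiments, where 27.0% of all genes were. Ddit3, Asns, Trib3 and Slc7a11 were 4 of 9 lower in both, where 24.5% of all genes were. The remaining 4 had opposite signs in the 2 experiments. In the plot of ratios within each experiment, only Asns had both counting intervals below equality and only Sesn2 both above it. Atf4 had intervals on opposite sides. The share of all genes with such intervals was not computed, and the intervals cover counting error only. Whether any genotype difference itself differed between experiments has no test, since each experiment holds 1 library per genotype. Markers of neighbouring tissue also differed by genotype. The median log2 difference of the choroid plexus markers, TCRb-/- minus WT, was 0.53 in experiment 1 and 0.58 in experiment 2. Striatum markers were at 0.18 and -1.36, and thalamus markers at -0.024 and 0.66. Their part in the Asns and Sesn2 differences was not tested. Summed over the 9 genes, the level was 559 and 599 CPM in TCRb-/- and 579 and 625 CPM in WT.

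**Figure D2:**
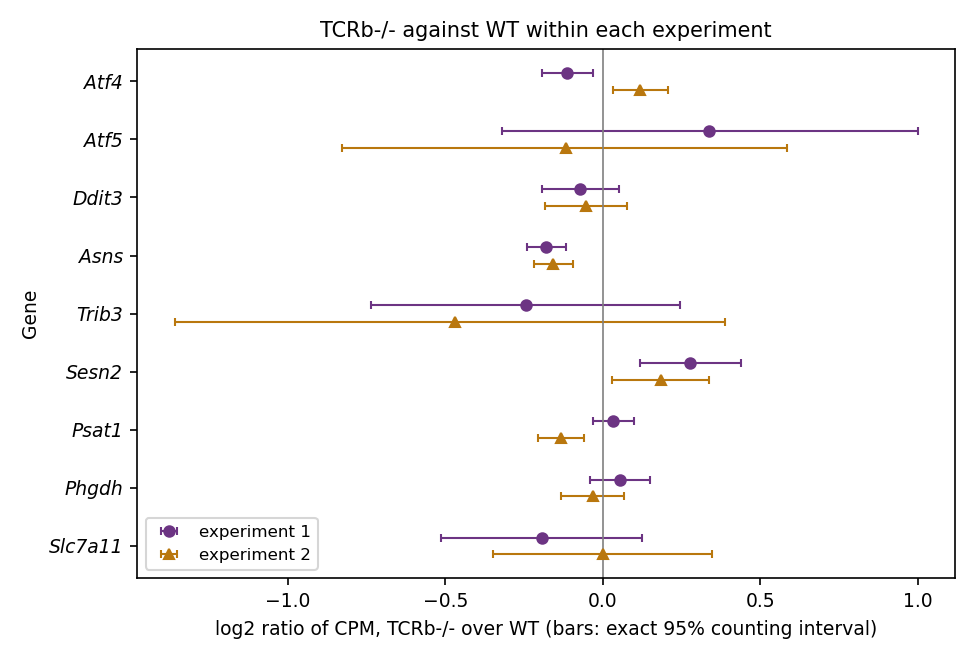
log2 ratio of CPM, TCRb-/- over WT, for each gene in experiment 1 (purple circles) and experiment 2 (orange triangles), with exact 95% counting intervals that cover counting error only. The Asns ratios were 0.883 and 0.897, the Sesn2 ratios 1.21 and 1.14, and the Atf5 and Trib3 intervals span equality.

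The second comparison set experiment 2 against experiment 1, with both genotypes on each side. Trib3 was lower in experiment 2 and was the 1 gene of the 9 that passed as lower, where 14.7% of all genes did. None of the 9 passed as higher, where 8.95% did. With the replicate block, which here holds genotype constant, Asns and Sesn2 passed as well, 2 of 9 as higher against 9.29% of all genes, and Trib3 again, 1 of 9 as lower against 15.4%. Without an overlap between experiments, 4 of 9 were higher in experiment 2 (Ddit3, Asns, Sesn2 and Phgdh; 30.1% of all genes) and 1 was lower (Trib3; 37.2%). Under quantile normalization the share of higher calls over all genes was 50.6% in place of 37.8%. The median log2 difference of the 9 genes was 0.059, beside -0.030 for all genes, and their median size was 0.063, beside 0.202.

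Trib3 had 2.64 CPM in TCRb-/- and 3.13 CPM in WT in experiment 1, against 1.00 and 1.39 CPM in experiment 2. All 4 counts were low, 65 and 82 reads against 20 and 31. The drop appeared in both genotypes, at ratios of 0.378 (exact 95% counting interval 0.217 to 0.633) in TCRb-/- and 0.443 (0.283 to 0.677) in WT. The means were 2.89 ± 0.343 and 1.19 ± 0.273 CPM (SD, n = 2 each), 2.42-fold lower in experiment 2. The fitted log2 difference was -0.83 (SE 0.19; limma adjusted p 0.0209, and 0.0203 with the replicate block). The call was lost when TCRb-/- replicate 1, TCRb-/- replicate 2 or WT replicate 1 was left out (adjusted p 0.0688, 0.0576 and 0.112), with log2 differences from -0.96 to -0.70 over the 4 omissions. Its size depends on the pseudocount, at -1.22 with 0.1 and -0.35 with 5.

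Sesn2 had 28.0 and 23.1 CPM in experiment 1 (TCRb-/- and WT) and 34.4 and 30.3 CPM in experiment 2. The experiments did not overlap, and the ratios were 1.23 (1.10 to 1.37) in TCRb-/- and 1.31 (1.17 to 1.47) in WT. The log2 difference was 0.33 (SE 0.12; limma adjusted p 0.0806), and 0.0391 was its adjusted p with the replicate block. Asns had 159 and 179.7 CPM in experiment 1 and 187 and 209 CPM in experiment 2. Its ratios were alike in both genotypes, 1.18 (1.13 to 1.23) and 1.16 (1.11 to 1.21). The log2 difference was 0.23 (SE 0.085; limma adjusted p 0.0902), or adjusted p 0.0429 with the replicate block. Of the settings with all 4 libraries, Asns passed in the block fit alone, and Sesn2 in that fit and under quantile normalization (adjusted p 0.0447).

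For the other 6 genes the adjusted p was between 0.377 and 0.912 in limma. Phgdh was at 1.03-fold (0.964 to 1.11) in TCRb-/- and 1.10-fold (1.03 to 1.17) in WT. Ddit3 was at 1.05-fold (0.961 to 1.15) and 1.04-fold (0.955 to 1.13). Atf4 was at 1.13-fold (1.06 to 1.20) in TCRb-/- and 0.961-fold (0.908 to 1.02) in WT, on either side of equality. Psat1 was at 0.933-fold (0.888 to 0.979) and 1.05-fold (0.9999 to 1.10), the other way round. Atf5 was at 0.902-fold (0.558 to 1.45) in TCRb-/- and 1.23-fold (0.772 to 1.98) in WT, and Slc7a11 at 1.09-fold (0.858 to 1.39) and 0.956-fold (0.765 to 1.19). All 4 of these intervals include equality. Trib3 is the gene with both intervals below equality in the plot of experiment 2 over experiment 1. Asns and Sesn2 are those with both above it. The share of all genes with such intervals was not computed.

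**Figure D3:**
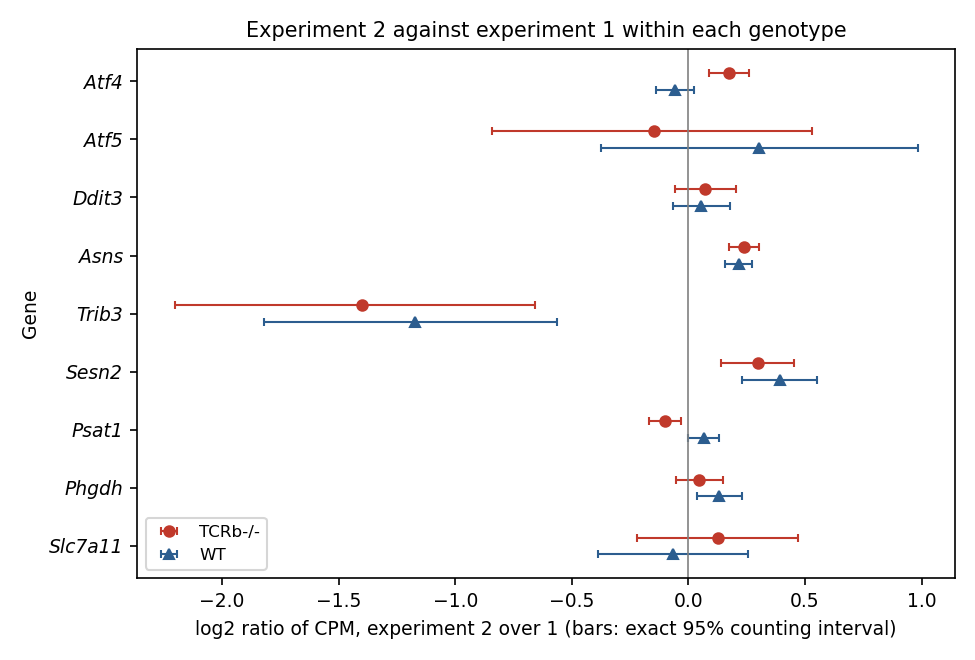
log2 ratio of CPM, experiment 2 over experiment 1, for each gene in TCRb-/- (red circles) and WT (blue triangles), with exact 95% counting intervals that cover counting error only. Trib3 lay at 0.378-fold and 0.443-fold, Sesn2 at 1.23-fold and 1.31-fold, and Asns at 1.18-fold and 1.16-fold.

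Gene length and dissection moved with the same contrast. Genes of up to 2497 exon bases, the shortest of 5 equal classes (Trib3 with 2125 bases, Atf4, Atf5, Ddit3 and Phgdh among them), had a median log2 difference of 0.16 between experiments. In that class 20.8% of genes passed as higher and 3.06% as lower. The next class, with Asns (2735) and Sesn2 (3475), had a median of 0.038. Markers of the cortex and hippocampus had a median of -1.998 and striatum markers -1.60, while thalamus markers had 1.19 and choroid plexus markers 1.40. Astrocyte markers had 0.043 and neuron markers -0.017. In such bulk tissue, fewer cells that make a transcript and less transcript per cell cannot be told apart, and the part of tissue makeup or gene length in the Trib3, Asns and Sesn2 differences was not tested. Over the 4 libraries, the 3 of 9821 genes with at least 10 CPM whose centred log2 values came closest to Trib3 were Phf24, Fam126a and Mpped1, with root mean square differences of 0.018, 0.021 and 0.027. Phf24 had 223 and 246 CPM in experiment 1 and 120 and 146 CPM in experiment 2. Fam126a had 21.8 and 25.6 CPM against 12.1 and 14.3 CPM. Mpped1 had 120.4 and 140 CPM in experiment 1 and 66.5 and 76.4 CPM in experiment 2. The match is on log2(CPM + 1), where the added 1 shrinks the differences of a gene as low as Trib3 and hardly those of these 3 genes. In CPM the Trib3 ratios of 0.378 and 0.443 lie farther from equality than those of Mpped1, so that the closeness depends on the pseudocount. With 4 points, it is a description of shape on that scale only.

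The rest of the pathway was read from 10 lists with 100 tested genes in all. Gdf15, Fgf21 and Slc43a1 of these lists had no row among the 15409 gene rows and so were not analysed. By genotype, 0 of the 100 passed in limma with or without the block, and their median log2 difference was 0.011. The upstream kinases and phosphatase subunits that set eIF2alpha phosphorylation (9 genes) had a median of -0.0019. Among them, Impact, an inhibitor of the amino acid sensor GCN2, was at -0.15 (SE 0.087 with the replicate block), and Eif2ak1, the heme-regulated kinase, at -0.020 (0.073). Ppp1r15a encodes GADD34, the stress-induced phosphatase subunit that ends the response, and was picked after its values were seen. It had 43.5 and 44.5 CPM in TCRb-/- and 37.3 and 36.5 CPM in WT. It thus lay wholly higher in TCRb-/-, as did 9.76% of all genes. Its log2 difference was 0.25 (SE 0.085; adjusted p 0.848 with the replicate block), which is not past the threshold. The subunits of eIF2 and of its exchange factor eIF2B (8 genes) had a median of -0.019, with Eif2b5 at 0.088 and Eif2s1 at -0.053.

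The further ATF4 partners and targets (11 genes, median 0.012) included Vldlr at 0.034 and Jdp2 at 0.0088. Serine, glycine and one-carbon enzymes (13 genes) had a median of -0.032, with Got1 at -0.096 and Gpt2 at 0.10. Amino acid transporters (9 genes) had -0.036, with Slc3a2, the partner chain of the Slc7a11 exchanger, at 0.11 and Slc38a2 at -0.039. Aminoacyl-tRNA synthetases with the tRNA exporter Xpot (13 genes) had -0.017. Mitochondrial chaperones and proteases (7 genes) had -0.052, and NRF2 with its targets (10 genes), another known regulator of Slc7a11 and Sesn2, had 0.045. The other sestrins and tribbles (4 genes) had -0.068. The XBP1 and ATF6 arms of the unfolded protein response, which respond to misfolded protein as the eIF2alpha kinase PERK does, had the highest median of the 10 lists, 0.084 over 17 genes. Of the 17, 11 were higher in TCRb-/- in both experiments and 0 were lower in both, where 27.0% and 24.5% of all genes were. In the other 9 lists between 1 and 6 genes were higher in both experiments, the 6 among the 10 NRF2 genes, and between 0 and 4 were lower in both. The choroid plexus markers, higher in TCRb-/- in both experiments as given above, moved with this tally. So did the medians of the ependymal, endothelial, septum, astrocyte and microglia markers. Medians of the neuron, cortex and hippocampus, and T cell markers were lower in both experiments. The part of any of these in the tally was not tested. Hspa5, the chaperone BiP, was at 0.14 (SE 0.065; adjusted p 0.848 with the replicate block), and Calr at 0.082 (0.072; 0.918). No gene of this list passed the threshold.

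Between experiments, 14 of the 100 genes passed as higher and 9 as lower, and 13 and 9 with the replicate block, beside 8.95% and 14.7% of all genes without it. Regulators of eIF2alpha went in both directions: Impact was higher in experiment 2 (log2 difference 0.38, limma adjusted p 0.0302), and Eif2ak1 (-0.24, 0.0369) and Ppp1r15b (-0.58, 0.00885), the constitutive phosphatase subunit, were lower. Eif2s2 (0.37, 0.0154) and Eif2b3 (0.37, 0.0249) were higher. Of the ATF4 partners and targets, the C/EBP factor Cebpb was higher (0.40, limma adjusted p 0.0299) and Nupr1 lower (-0.63, 0.0328). Chac1, a glutathione-degrading enzyme often used as a readout of ATF4 and named here after its values were seen, was at 0.051 (0.760). In amino acid metabolism, Mthfd2 (0.32, 0.0406), Mthfd2l (0.34, 0.0494) and Pycr1 (0.54, 0.0321) of the one-carbon and proline pathways were higher and Gpt2 lower (-0.46, 0.00904). Mthfd2l did not pass with the replicate block (adjusted p 0.0501). The cationic transporter Slc7a3 was higher (0.62, limma adjusted p 0.0169), as were the synthetases Cars (0.34, 0.0247) and Gars (0.27, 0.0288), while Xpot was lower (-0.41, 0.0116).

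In the unfolded protein arms, the sensor Atf6 was lower in experiment 2 (-1.002, limma adjusted p 0.00860) and Herpud1, which takes part in the disposal of misfolded protein, was higher (0.33, 0.0241). The mitochondrial Clpp (0.37, 0.00907) and Hspe1 (0.34, 0.0181) were higher. Of the NRF2 targets, Nqo1 was higher (0.49, 0.0419 in limma) and Gclc (-0.25, 0.0272) and Txnrd1 (-0.32, 0.0152) lower. The Trib3 relative Trib2 was also lower (-0.28, limma adjusted p 0.0484). The others of that list, named after their values were seen, were Sesn1 at -0.21 (0.0579), Trib1 at -0.088 (0.620) and Sesn3 at -0.26 (0.110). Sesn1 and Sesn3 had the opposite sign to Sesn2 between experiments, and in this fit without the block none of the 3 passed the threshold. The plot of the 10 lists shows these calls on both sides of 0 and none by genotype.

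**Figure D4:**
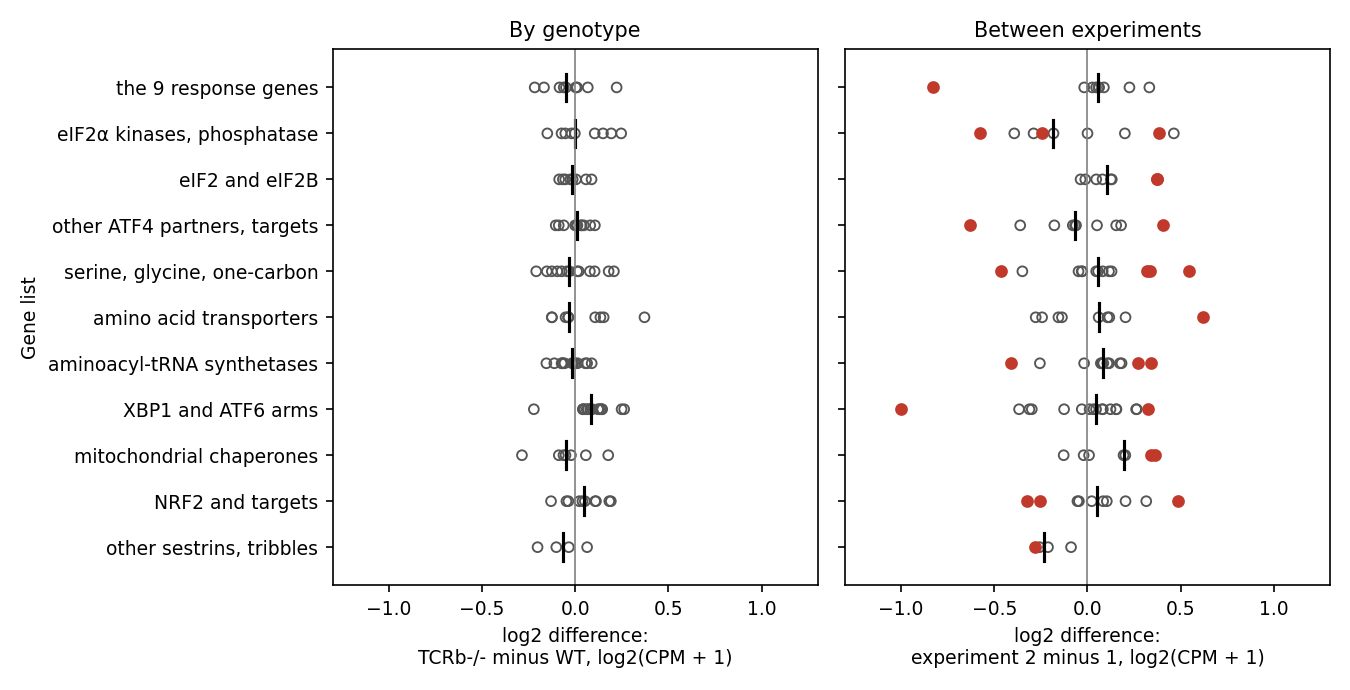
log2 difference of each gene of the 9 response genes and of the 10 pathway lists, by genotype (left, TCRb-/- minus WT) and between experiments (right, experiment 2 minus 1); filled red points passed the threshold of 0.05 in limma without the block, open points did not, and black bars are list medians. No point is filled on the left, and on the right Trib3 is the filled point of the 9 genes, at -0.83.

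Of the 9 genes, Ddit3 and Atf5 share exon bases with a gene on the other strand, and the sources used here do not give the strand setting of the counting. Ddit3 shares 68 exon bases with Mars and 13 with Gm4189, and Atf5 shares 82 with Nup62 and 82 with Il4i1, so that reads from these bases cannot be assigned. For the other 7 no overlapping exon was annotated.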

How the data were processed

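RNA from the cleared detergent lysate of pooled septal tissue was made into 4 libraries with a SMARTer kit, per the labels' protocols. Per the submitters' processing notes, the tools were HISAT2 2.1.0, SAMtools 1.3, HTSeq 0.9.1, R 4.0.5 and limma 3.46.0 and the build mm10 (GRCm38). The sources used here do not give their roles or the rule for keeping rows. The deposited values were log2 of CPM, adding 0.5 to the reads and 1 to the library size. Inverting this returned whole reads for 100% of values (tolerance 0.001 reads). Of 15426 rows, 17 spike-in rows were left out, and 6 symbols stood on 2 rows each.

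From the recovered reads, CPM of the library total was computed and tested as log2(CPM + 1), which understates changes of low genes. The 13912 genes averaging 1 CPM or more were tested with limma 3.58.1 in R 4.3.3 (empirical Bayes with a mean-variance trend, two-sided, Benjamini-Hochberg, threshold 0.05). Genotype or experiment was the only term. The genotype fit without the block was also run on simulated counts. Those had no difference between experiments, unlike these libraries, so that run does not show how the fits perform here. Intervals of counts and of ratios of counts are exact (Clopper-Pearson, 95%). These intervals cover counting error only, since amplified reads are not independent molecules. A count of 0 was read as up to 3 reads, between 0.114 and 0.150 CPM. Other steps ran in Python 3.11.15 (scipy 1.17.1, pandas 2.3.3). Gene positions and exon lengths are from GENCODE M21, and promoters from RefSeq.

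Replicate numbers are the experiments in the labels, and across genes the deviations of same-numbered libraries from their genotype means had a correlation of 0.719, so the experiment was used as a replicate block in an alternative fit. Also tried were quantile normalization, median-of-ratios scaling, voom weights, moderation without a trend, a pseudocount of 0.1 or 5, a 10 CPM filter or none, and leaving out each library. Replicates of 1 genotype were checked for duplication, and differed far beyond counting error (chi-square per degree of freedom 52.1 and 30.3). The 9 genes and all gene lists were chosen with earlier results of these data known. All 9 genes are named whatever their values. From each pathway list the text names genes past the threshold, and otherwise the 2 with the highest mean CPM where it names any, at most 4 a list. Genes outside that rule are marked as picked after their values were seen.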

Additional observations from a re-analysis of the deposited data

Results flagged for a closer look

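Of the 9 genes, 4 had a genotype difference of opposite sign in the 2 experiments. Each difference rested on 1 library per genotype, and the difference between experiments was not tested. Across all 13912 tested genes, the sign (TCRb-/- minus WT) was positive both times for 27.0% and negative both times for 24.5%. Opposite signs were therefore common over all genes and do not set these 4 apart. On the log2(CPM + 1) scale, Atf4 was at -0.11 in experiment 1 and 0.12 in experiment 2, a gap of -0.23. Its counting intervals excluded equality both times. Atf5 was at 0.21 and -0.073, a gap of 0.28, at counts between 33 and 45 reads. Psat1 was at 0.033 and -0.13, a gap of 0.17. Phgdh was at 0.053 and -0.032, a gap of 0.085.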

How the results depend on the processing

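By genotype, 0 of the 9 genes passed in limma under every alternative run. Over all genes the count by genotype was 2 with the replicate block and 0 under the other settings with all libraries. Between experiments the count of the 9 was 3 with the replicate block (Trib3, Asns at 0.23 and Sesn2 at 0.33), 2 under quantile normalization (Trib3 and Sesn2, at 0.41) and 0 with a filter at 10 CPM, which leaves out Trib3, Atf5 and Slc7a11. Over all genes it was 629 without a trend. The cause was not tested. The replicate block changed no other call of the 9. Trib3 passed in every setting with all libraries that kept it, with adjusted p from 0.0179 to 0.0465 and log2 differences from -1.26 (voom weights) to -0.35 (pseudocount 5). The median of the 9 between experiments was 0.064 with a pseudocount of 0.1, 0.076 with the filter at 10 CPM, 0.090 with median-of-ratios scaling, 0.115 with quantile normalization and 0.065 with voom weights. By genotype it was -0.023 with the filter at 10 CPM. Under median-of-ratios scaling Atf4 by genotype (-0.0020) and Psat1 between experiments (0.015) changed sign, both near 0.

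Leaving out 1 library leaves 1 sample in a group, assumed to vary like the other group, and mixes genotype with experiment by construction. Ranges were then 0 to 47 genes by genotype (47 without TCRb-/- replicate 1, 1 without TCRb-/- replicate 2) and 1406 to 3390 between experiments (1406, 1823 and 1637 without TCRb-/- replicate 1, TCRb-/- replicate 2 and WT replicate 1). Of the 9, 0 passed between experiments without TCRb-/- replicate 1, TCRb-/- replicate 2 or WT replicate 1, and 2 without WT replicate 2 (Trib3 and Sesn2). Medians of the 9 ran from -0.055 to -0.013 by genotype and from 0.028 to 0.098 between experiments. Values that changed sign by genotype ran from -0.084 to 0.090 for Atf4, -0.026 to 0.16 for Atf5, -0.055 to 0.076 for Phgdh, -0.0995 to 0.00034 for Psat1 and -0.65 to 0.22 for Trib3. Between experiments they ran from -0.00034 to 0.12 for Atf4, -0.058 to 0.15 for Atf5, -0.083 to 0.049 for Psat1 and -0.058 to 0.11 for Slc7a11. Depth limits Atf5 and Trib3, since 1 read is worth at least 0.0382 CPM.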
